A study of Mus musculus with 6 samples.

Results

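The nuclear genes of respiratory complexes II to V were compared between livers of HFD mice and of HFD mice supplemented with allantoin. Protein-coding genes were taken by GENCODE M21 symbol: Sdha to Sdhd and the Sdhaf genes for complex II, the Uqc genes for complex III, Cox4 to Cox8 and Cox10 to Cox19 for complex IV, and the Atp5 genes for complex V. This symbol rule, which was proposed with earlier results of these data known, gave 63 of the 54532 genes in the table, with 8 genes for complex II, 11 for complex III, 26 for complex IV and 18 for complex V, and 56 of them had enough counts to be tested among 12795 tested genes. The 7 that were not tested were the tissue isoforms Cox4i2, Cox6a2, Cox6b2, Cox7b2, Cox8b and Cox8c and a second annotation entry of Atp5o that held no counts. Some nuclear subunits carry symbols outside this rule, among them Cyc1, Usmg5 and Ndufa4, and their values are given beside the other genes of the pathway.

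Male C57BL/6J mice of wild-type genotype entered at 8 weeks of age and received a high-fat diet (HFD) for 4 weeks and then for another 4 weeks. In those last weeks the HFD+Allantoin-H group had allantoin, an oxidation product of uric acid, in its drinking water at 0.3 mg/mL. The HFD group had none. Both groups thus carried the same diet, and no mice on chow or on the lower allantoin dose were analysed here. Liver RNA of 3 mice per group was sequenced with 1 library per mouse, numbered 1 to 3 for HFD and 4 to 6 for HFD+Allantoin-H. The dose of this group and the age at entry were taken from the study's own text, since the labels give that dose for no single library and their wording can also be read as an age of 4 weeks at the start of the diet.

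Complex II oxidises succinate and passes the electrons to ubiquinone, complex III passes them from ubiquinol to cytochrome c, and complex IV hands them to oxygen. Complexes III and IV pump protons across the inner membrane, and complex V, the ATP synthase, uses the return of the protons to make ATP. Each complex has a catalytic or core part and, except for complex II, a set of small accessory subunits that carry no redox centre or catalytic site. All complex II subunits are encoded in the nucleus, whereas the catalytic core of complex IV, cytochrome b of complex III and the proton channel of complex V come from mitochondrial DNA (mtDNA). A liver cell needs both genomes for these complexes and is rich in mitochondria.

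Libraries held 11326372 to 14601457 counts. Protein-coding genes of mtDNA took 17.1% to 35.4% of the counts in HFD and 6.66% to 11.1% in HFD+Allantoin-H. The highest share was in HFD replicate 1. The 10 hepatocyte markers summed to 96360 to 99190 CPM in HFD and 84700 to 113700 CPM in HFD+Allantoin-H. Of these 10, Ttr, Apoa1 and Serpina1c were called lower and Apob and Cps1 higher. HFD replicate 2 stood apart in holding 520 counts of Adipoq, 498 of Plin1 and 115 of Lep, markers of fat tissue that were at 0 or 1 count in each other library. Of 10 stellate cell markers, 7 were called higher in HFD+Allantoin-H and 0 lower (summed level 207 to 341 CPM in HFD and 464 to 537 CPM in HFD+Allantoin-H). Of 10 macrophage markers, 3 were called higher and 0 lower (158 to 364 and 389 to 426 CPM). These counts stand beside 11.3% of all tested genes called higher and 13.0% lower. Among 10 endothelial and 3 tested cholangiocyte markers, Stab1 and Sox9 were called lower (log2 fold changes −0.94 and −3.17) and none higher. No tested erythroid, lymphocyte or adipocyte marker was called. The part of these markers in the results below was not tested. In bulk liver, fewer cells of a type and less RNA per cell cannot be told apart.

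Most small subunits were lower, while some catalytic or core subunits were higher. Sdha, Sdhd, Atp5b and the Cox7a-related Cox7a2l were about 2-fold higher in HFD+Allantoin-H. Most small subunits of complexes III and IV and most stalk subunits of complex V were 1.51- to 2.75-fold lower. At an edgeR adjusted p under 0.05 (quasi-likelihood test with Benjamini-Hochberg adjustment over all tested genes), 24 of the 56 tested members were lower (42.9%) and 5 were higher (8.93%). Of all tested genes, 13.0% were called lower and 11.3% higher, so the share of members called higher lay below that of all tested genes. The median log2 fold change of the members was −0.43, beside −0.03 over all tested genes. The HFD and HFD+Allantoin-H libraries did not overlap for 25 members that lay lower and 7 that lay higher, where 21.9% and 22.4% of all tested genes did not overlap in these directions.

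By class, 3 of 10 catalytic or core subunits were called higher and 1 lower (median log2 fold change 0.36). Of 20 small accessory subunits, 13 were called lower and 1 higher, with a median of −0.78. The stalk and ring subunits of complex V gave 5 lower and 0 higher of 9 tested, with a median of −0.77, and the 15 assembly factors gave 5 lower and 1 higher, with a median of −0.35. By complex, the medians were −0.15 in complex II, −0.76 in complex III, −0.66 in complex IV and −0.31 in complex V, and those of complexes II and V and of the assembly factors lay above 0 (0.25, 0.08 and 0.06) when libraries were scaled by library size only. That scaling moved the median of all tested genes up by 0.41 and called 13 members lower and 8 higher, beside 5.27% and 24.7% of all tested genes. When any single HFD+Allantoin-H library was left out, all 5 calls of a higher member were lost. Without HFD+Allantoin-H replicate 4, 5 and 6 in turn, 18, 16 and 20 members were called lower, beside 5.29%, 4.27% and 6.29% of all tested genes, and the share of all tested genes called higher fell likewise, to 4.51%, 3.48% and 5.31%. At an edgeR adjusted p under 0.01, 19 members were lower and 0 higher, beside 4.48% and 3.46% of all tested genes. DESeq2 called 24 members lower and 6 higher (15.4% and 13.7% of all tested genes), and limma-voom called 23 and 6 (12.5% and 11.9%).

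**Figure D1:**
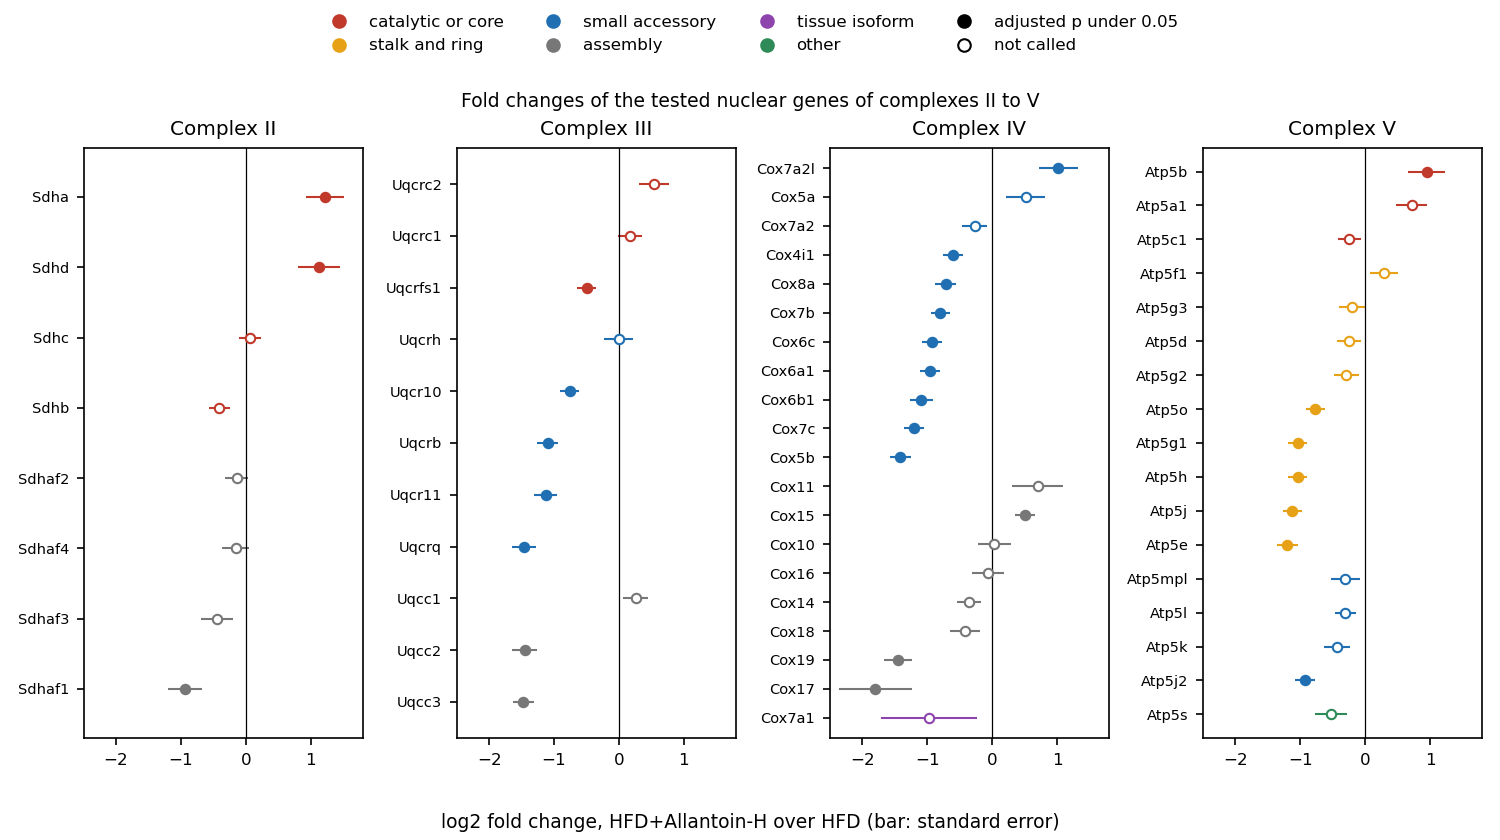
Log2 fold change of each tested member, HFD+Allantoin-H over HFD, with its standard error as a bar and n = 3 libraries per group, in 1 panel per complex. Colours give the class, and filled points have an edgeR adjusted p under 0.05. Red points (catalytic or core) lie mostly right of 0, and blue (small accessory) and orange (stalk and ring) points mostly left of it, with Cox7a2l at 1.02 as the called exception among the blue points.

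Complex II has 4 subunits, and their transcripts did not move together. Sdha, the flavoprotein that oxidises succinate (ENSMUSG00000021577, chr13:74322254-74350280, minus strand), was measured at 96.7, 225 and 227 CPM in HFD and 441, 429 and 408 CPM in HFD+Allantoin-H. Each HFD+Allantoin-H library lay above each HFD library, and Sdha was 2.33-fold higher (log2 fold change 1.22, SE 0.30, edgeR adjusted p = 0.0199). Sdhd, a membrane anchor that binds haem and ubiquinone (ENSMUSG00000000171, chr9:50596357-50603812, minus strand), was at 36.5, 83.4 and 104 CPM in HFD and 167, 166 and 158 CPM in HFD+Allantoin-H. Its groups did not overlap either, and it was 2.19-fold higher (log2 fold change 1.13, SE 0.33, edgeR adjusted p = 0.0352). HFD replicate 1 was the lowest library for both genes. Without it the log2 fold changes were 0.91 for Sdha and 0.80 for Sdhd, with edgeR adjusted p of 0.00820 and 0.0164. Without one HFD+Allantoin-H library the edgeR adjusted p was 0.0557 to 0.0696 for Sdha and 0.0868 to 0.103 for Sdhd, and without HFD replicate 2 it was 0.0580 for Sdhd.

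The other 2 subunits did not pass the test. Sdhb, the iron-sulfur subunit that takes the electrons from Sdha, was at 280.4, 363 and 290.0 CPM in HFD and 243, 232 and 228 CPM in HFD+Allantoin-H (log2 fold change −0.41, SE 0.16, edgeR adjusted p = 0.09999). Its groups were apart, with HFD the higher group on this TMM scale. Sdhc, the other anchor, was at 102, 117.2 and 136 CPM in HFD and 134, 119 and 119 CPM in HFD+Allantoin-H, and its groups overlapped (log2 fold change 0.07, SE 0.17, edgeR adjusted p = 0.806). Of the 4 assembly factors, Sdhaf1, which helps to insert the iron-sulfur clusters of Sdhb, was lower at 8.84, 8.30 and 7.52 CPM in HFD and 3.45, 4.08 and 5.33 CPM in HFD+Allantoin-H (log2 fold change −0.94, SE 0.26, edgeR adjusted p = 0.0329). Its groups were apart, but the edgeR adjusted p was above 0.05 without HFD replicate 1 (0.0612), HFD replicate 2 (0.0610) or HFD+Allantoin-H replicate 4 or 5 (0.126 and 0.121). Sdhaf2, which attaches FAD to Sdha, and Sdhaf3 and Sdhaf4 were not called, with log2 fold changes of −0.14, −0.44 and −0.16.

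The bases before the RefSeq transcription starts of Sdha and Sdhd (GRCm38.p6) are shown because these are the complex II genes that rose, and capitals mark matches to the NRF1 motif (GCGCA, any base, GCGC) or to the ETS motif CCGGAAG on either strand. NRF1 and the ETS factor GABP are known regulators of nuclear respiratory genes. The Sdha bases come from chr13:74350281-74350490 and the Sdhd bases from chr9:50603850-50604099, both on the minus strand and written 5′ to 3′ along the gene.
Sdha: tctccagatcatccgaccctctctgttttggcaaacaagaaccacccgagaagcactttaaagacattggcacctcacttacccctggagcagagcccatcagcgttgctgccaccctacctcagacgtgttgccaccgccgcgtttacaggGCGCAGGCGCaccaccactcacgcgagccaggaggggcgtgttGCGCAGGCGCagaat
Sdhd: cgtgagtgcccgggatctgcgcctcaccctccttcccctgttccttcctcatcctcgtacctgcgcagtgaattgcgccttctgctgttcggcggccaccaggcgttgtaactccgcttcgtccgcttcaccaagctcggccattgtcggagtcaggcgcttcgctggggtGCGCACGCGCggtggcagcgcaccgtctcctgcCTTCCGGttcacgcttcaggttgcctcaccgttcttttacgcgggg
The Sdha run holds an NRF1 match at 98 and at 55 bases before the start, and a further one lies 10 bases before the start, in bases that GENCODE places inside the gene and that are not printed. In Sdhd an NRF1 match lies 79 bases and an ETS match on the other strand 46 bases before the start. A match describes the letters and is no measured binding site.

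In complex III, 4 of 5 small subunits and 2 of 3 assembly factors were lower, and no member was called higher. The 3 catalytic or core subunits were not alike. Uqcrfs1, the Rieske iron-sulfur protein and the only catalytic subunit of complex III among the members, was at 239, 261 and 262 CPM in HFD and 185, 176 and 180.5 CPM in HFD+Allantoin-H. It was 1.41-fold lower with no overlap (log2 fold change −0.49, SE 0.15, edgeR adjusted p = 0.0390), and the edgeR adjusted p was 0.0568 to 0.157 without any one of the libraries other than HFD replicate 1. The core proteins Uqcrc1 and Uqcrc2, which belong to the family of mitochondrial processing peptidases, were not called. Uqcrc1 was at 150.3, 219.5 and 207 CPM in HFD and 216, 221 and 211 CPM in HFD+Allantoin-H and overlapped between the groups (log2 fold change 0.17, SE 0.18, edgeR adjusted p = 0.530). Uqcrc2 was at 91.0, 163 and 140.2 CPM in HFD and 174, 185 and 216 CPM in HFD+Allantoin-H (log2 fold change 0.54, SE 0.23, edgeR adjusted p = 0.109). For Uqcrc2 all 3 HFD+Allantoin-H libraries lay above the HFD libraries.

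Of the 5 small subunits of complex III, 4 were called lower, and the median over the 5 was −1.10 on the log2 scale. Uqcrq (ENSMUSG00000044894, chr11:53427922-53430831, minus strand), the small subunit that sits next to cytochrome b, was at 862, 672 and 654 CPM in HFD and 289, 278 and 229 CPM in HFD+Allantoin-H. The groups were far apart, and it was 2.75-fold lower (log2 fold change −1.46, SE 0.19, edgeR adjusted p = 0.00308). Uqcr11, Uqcrb and Uqcr10, which are likewise without a redox centre, were 2.19-, 2.14- and 1.69-fold lower (edgeR adjusted p = 0.00478, 0.00392 and 0.00926). Without HFD+Allantoin-H replicate 4 or 5, Uqcr10 was at an edgeR adjusted p of 0.0534 or 0.0617. The exception was Uqcrh, the acidic hinge protein near cytochrome c1, with a log2 fold change of −0.01 and overlapping groups.

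Among the assembly factors of complex III, Uqcc3 was at 49.2, 43.1 and 39.3 CPM in HFD and 17.1, 15.5 and 14.7 CPM in HFD+Allantoin-H. Uqcc2 was at 47.9, 37.8 and 32.3 CPM in HFD and 16.1, 13.2 and 13.8 CPM in HFD+Allantoin-H. Both act on newly made cytochrome b, and both were lower with no overlap, by 2.78-fold (log2 fold change −1.48, SE 0.16, edgeR adjusted p = 0.00226) and 2.73-fold (log2 fold change −1.45, SE 0.19, edgeR adjusted p = 0.00348). Uqcc1, the partner of Uqcc2, was not called, with a log2 fold change of 0.26 and overlapping groups.

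The nuclear subunits of complex IV surround a core that mtDNA encodes, and 8 of the 11 expressed in liver were called lower. Cox5b, a zinc-binding subunit on the matrix side (ENSMUSG00000061518, chr1:36691449-36693681, plus strand), was at 188, 214 and 179 CPM in HFD and 80.0, 73.5 and 64.8 CPM in HFD+Allantoin-H. Cox7c, a short membrane subunit (ENSMUSG00000017778, chr13:86044816-86046904, minus strand), was at 224, 221 and 216 CPM in HFD and 99.8, 88.7 and 99.2 CPM in HFD+Allantoin-H. Neither gene showed overlap between the groups, and they were 2.66-fold (log2 fold change −1.41, SE 0.16, edgeR adjusted p = 0.00252) and 2.30-fold lower (log2 fold change −1.20, SE 0.15, edgeR adjusted p = 0.00292). Cox6b1, which faces the intermembrane space, Cox6a1, Cox6c, Cox7b and Cox8a were lower by 2.13-, 1.94-, 1.90-, 1.74- and 1.64-fold, and Cox4i1, the subunit through which ATP is known to slow the enzyme, by 1.51-fold (edgeR adjusted p = 0.00513 to 0.0231 over these 6 genes). Every one of these 8 genes was lower in all 3 HFD+Allantoin-H libraries than in all 3 HFD libraries. Without one HFD+Allantoin-H library the edgeR adjusted p was 0.0682 to 0.112 for Cox4i1 and 0.0587 to 0.0841 for Cox8a, and without HFD+Allantoin-H replicate 5 it was 0.0537 for Cox7b.

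The bases before the starts of Cox5b and Cox7c are shown for comparison with those of Sdha and Sdhd, as these are the tested subunits with the smallest p among the lower members that the RefSeq promoter table holds. The Cox5b bases come from chr1:36691237-36691448 on the plus strand and the Cox7c bases from chr13:86046905-86047045 on the minus strand (GRCm38.p6), and both runs stop where GENCODE starts the gene.
Cox5b: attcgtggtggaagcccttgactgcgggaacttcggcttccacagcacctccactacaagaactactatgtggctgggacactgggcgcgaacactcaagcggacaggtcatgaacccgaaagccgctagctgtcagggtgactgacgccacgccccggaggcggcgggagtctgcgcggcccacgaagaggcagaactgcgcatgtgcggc
Cox7c: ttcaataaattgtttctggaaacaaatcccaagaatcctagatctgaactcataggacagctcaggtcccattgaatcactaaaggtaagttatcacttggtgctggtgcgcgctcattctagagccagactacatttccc
Neither run holds a match to the NRF1 or ETS motif, nor to the 4 other motifs searched, and so neither has capitals. This says only that these letters are not in these bases.

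The 3 other expressed subunits of complex IV behaved differently. Cox7a2l is a Cox7a-related protein described as joining complexes III and IV into supercomplexes, and whether it does so in these mice was not tested. Its transcript was at 24.8, 54.2 and 59.0 CPM in HFD and 105, 95.9 and 79.8 CPM in HFD+Allantoin-H. All HFD+Allantoin-H libraries lay above all HFD libraries, and it was 2.03-fold higher (log2 fold change 1.02, SE 0.30, edgeR adjusted p = 0.0372), with an edgeR adjusted p of 0.0710 to 0.116 without one HFD+Allantoin-H library. Cox5a, which meets Cox4i1 in an early step of assembly, was at 20.6, 51.5 and 45.3 CPM in HFD and 62.0, 58.2 and 48.7 CPM in HFD+Allantoin-H. It was not called (log2 fold change 0.52, SE 0.30, edgeR adjusted p = 0.232), and its groups overlapped, with HFD replicate 2 above HFD+Allantoin-H replicate 6. Cox7a2 was not called, with a log2 fold change of −0.27 and overlapping groups. Cox5a and Cox5b, which are unrelated in spite of their names, thus had log2 fold changes of 0.52 and −1.41.

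Of 8 assembly factors of complex IV, 2 were called lower and 1 higher. Cox19 and Cox17 are small proteins of copper handling in the intermembrane space. Cox19 was at 113, 70.0 and 82.5 CPM in HFD and 31.5, 27.98 and 37.6 CPM in HFD+Allantoin-H and was 2.74-fold lower with no overlap (log2 fold change −1.45, SE 0.22, edgeR adjusted p = 0.00403). Cox17 was low in every library, at 6.22, 3.56 and 1.50 CPM in HFD and 0.953, 1.48 and 0.742 CPM in HFD+Allantoin-H (log2 fold change −1.80, SE 0.56, edgeR adjusted p = 0.0454). HFD replicate 3 lay just above HFD+Allantoin-H replicate 5, and the edgeR adjusted p was 0.0742 to 0.144 without any one of the libraries other than HFD replicate 3. Cox15, an enzyme of haem A synthesis, was at 16.7, 15.3 and 16.3 CPM in HFD and 24.0, 21.9 and 22.6 CPM in HFD+Allantoin-H and was 1.42-fold higher (log2 fold change 0.50, SE 0.16, edgeR adjusted p = 0.0442). Its groups were apart, but its edgeR adjusted p was 0.0515 to 0.151 without any one of the libraries other than HFD replicate 1. Cox10, the enzyme before Cox15 in haem A synthesis, and Cox11, Cox14, Cox16 and Cox18 were not called, with log2 fold changes of 0.04, 0.70, −0.35, −0.06 and −0.42.

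The 7 tissue isoforms of complex IV were close to absent, as counts in the libraries show. Cox7a1, the heart and muscle isoform of Cox7a, had 5, 15 and 16 counts in HFD and 2, 6 and 18 in HFD+Allantoin-H (log2 fold change −0.97, SE 0.75, edgeR adjusted p = 0.368), and its groups overlapped. Cox8b, another heart and muscle isoform, had 27 counts in HFD replicate 2, the library with the fat markers, 4 in HFD+Allantoin-H replicate 4 and 0 elsewhere. Cox6b2, the testis isoform, reached 9 counts in HFD+Allantoin-H replicate 5 and was at 0 to 4 counts in the other libraries. Cox4i2 and Cox6a2 did not go above 5 and 4 counts in any library, and Cox7b2 and Cox8c were at 0 in all 6. A count of 0 allows up to 3 counts in a library. The isoforms named here were therefore not compared between groups, apart from Cox7a1.

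**Figure D2:**
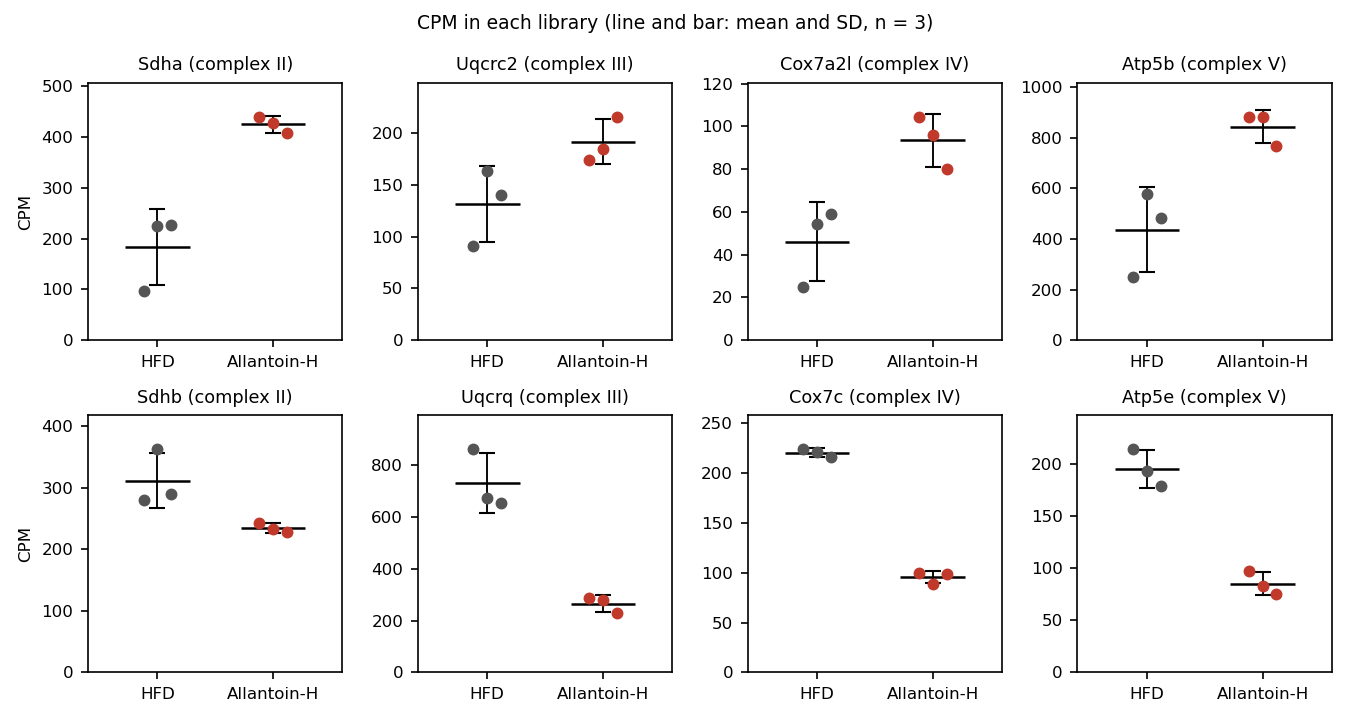
CPM of 8 members in each library, with points for libraries, a line for the group mean and bars for the SD (n = 3), and every axis starting at 0. The upper row shows 1 large or linker subunit per complex and the lower row 1 smaller subunit of the same complex. These genes were chosen by hand with results known, and they do not stand for all subunits of a class. Sdhb in the lower row is itself classed as catalytic or core. For complex III the upper row holds the core protein Uqcrc2, whereas the catalytic subunit Uqcrfs1 was called lower. Upper-row genes lie higher in HFD+Allantoin-H with HFD replicate 1 the lowest point, and lower-row genes lie lower in HFD+Allantoin-H, although Uqcrc2 and Sdhb did not pass the test.

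Complex V consists of the F1 head, a central and a peripheral stalk and a membrane ring. In the head, Atp5b, the beta subunit with the catalytic sites (ENSMUSG00000025393, chr10:128083273-128090391, plus strand), was at 251, 576 and 484 CPM in HFD and 879, 883 and 767 CPM in HFD+Allantoin-H. Each HFD+Allantoin-H library exceeded each HFD library, and the gene was 1.93-fold higher (log2 fold change 0.95, SE 0.28, edgeR adjusted p = 0.0395). Atp5a1, the alpha subunit that alternates with beta, was at 352, 673 and 610.2 CPM in HFD and 933, 907 and 842 CPM in HFD+Allantoin-H (log2 fold change 0.71, SE 0.24, edgeR adjusted p = 0.0600). Its groups were apart as well, and it was not called. It passed without HFD replicate 2 (edgeR adjusted p = 0.0446) and with library-size scaling (edgeR adjusted p = 0.0256), among others. Over all alternative fits, DESeq2 and limma-voom included, the adjusted p of Atp5a1 ran from 0.00654 to 0.156. Atp5c1, the gamma subunit that turns inside the head, was at 226, 320.5 and 254 CPM in HFD and 217, 218 and 240.2 CPM in HFD+Allantoin-H, and its groups overlapped (log2 fold change −0.24, SE 0.18, edgeR adjusted p = 0.339). Without one HFD+Allantoin-H library, Atp5b had an edgeR adjusted p of 0.0807 to 0.119.

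Of the 6 tested stalk subunits of complex V, 4 were lower. Atp5e, the epsilon subunit at the foot of the central stalk, was at 215, 194 and 179 CPM in HFD and 97.7, 82.8 and 75.7 CPM in HFD+Allantoin-H. Atp5j, coupling factor 6 of the peripheral stalk, was at 279.5, 286 and 264 CPM in HFD and 133, 123 and 125 CPM in HFD+Allantoin-H. Both were lower without overlap, by 2.29-fold (log2 fold change −1.20, SE 0.17, edgeR adjusted p = 0.00389) and 2.18-fold (log2 fold change −1.12, SE 0.15, edgeR adjusted p = 0.00337). Atp5h and Atp5o, subunit d and the OSCP of the peripheral stalk, were 2.06- and 1.70-fold lower (edgeR adjusted p = 0.00396 and 0.00769), and Atp5o was at 0.0517 without HFD+Allantoin-H replicate 5. Atp5f1, subunit b of the same stalk and its largest member, was not called, with a log2 fold change of 0.28 and overlapping groups, and neither was Atp5d, the delta subunit beside epsilon (−0.25).

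The c subunit of the membrane ring is made from 3 genes that encode the same mature protein, and only 1 of them was called. Atp5g1 was at 159.5, 156 and 157 CPM in HFD and 73.7, 81.5 and 74.4 CPM in HFD+Allantoin-H and was 2.06-fold lower with no overlap (log2 fold change −1.04, SE 0.15, edgeR adjusted p = 0.00386). Atp5g2 was at 72.4, 104 and 72.3 CPM in HFD and 72.7, 65.0 and 65.8 CPM in HFD+Allantoin-H (log2 fold change −0.29, SE 0.19, edgeR adjusted p = 0.284). Atp5g3 was at 224, 359 and 358 CPM in HFD and 286, 261 and 269.8 CPM in HFD+Allantoin-H (log2 fold change −0.20, SE 0.21, edgeR adjusted p = 0.503). For both of these the groups overlapped, and their log2 fold changes turned above 0 when libraries were scaled by library size only (0.12 and 0.19). The ratio of Atp5g3 to Atp5g1 counts within a library, which no scaling changes, was 1.40, 2.30 and 2.28 in HFD and 3.88, 3.20 and 3.63 in HFD+Allantoin-H.

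Of the small membrane subunits of complex V, Atp5j2 (subunit f) was 1.90-fold lower (edgeR adjusted p = 0.00534). Atp5k, Atp5l and Atp5mpl, the subunits e and g and a short proteolipid, were not called, with log2 fold changes of −0.43, −0.31 and −0.31, and each overlapped between the groups. Thus 1 of 4 small accessory subunits was lower in complex V, beside 4 of 5 in complex III and 8 of 11 in complex IV, and the difference between complexes was not tested. Atp5s, coupling factor B and no subunit, was not called (log2 fold change −0.53).

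The classes can be followed library by library. Relative to each gene's mean over the 6 libraries, the 20 small accessory subunits had a median log2 level of 0.30, 0.51 and 0.39 in HFD replicates 1 to 3 and of −0.37, −0.44 and −0.38 in HFD+Allantoin-H replicates 4 to 6. The 9 stalk and ring subunits had 0.38, 0.48 and 0.35, and −0.38, −0.39 and −0.41. For the 10 catalytic or core subunits the medians were −0.60, 0.02 and 0.01 in HFD and 0.16, 0.19 and 0.18 in HFD+Allantoin-H. HFD replicate 1, the library with the largest mtDNA share, was thus well below the other HFD libraries in the catalytic or core subunits and close to them in the small ones.

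Without HFD replicate 1, 22 members were called lower and 5 higher, beside 10.2% and 9.27% of all tested genes. The median log2 fold change of the catalytic or core subunits then fell from 0.36 to 0.18, with 3 still called higher and 1 lower, and that of the small accessory subunits was −0.83, with 13 lower and 1 higher. Without HFD replicate 2, the library with the fat markers, 21 members were called lower and 4 higher, beside 12.5% and 9.83% of all tested genes, and the medians were 0.50 for catalytic or core and −0.74 for small accessory subunits.

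**Figure D3:**
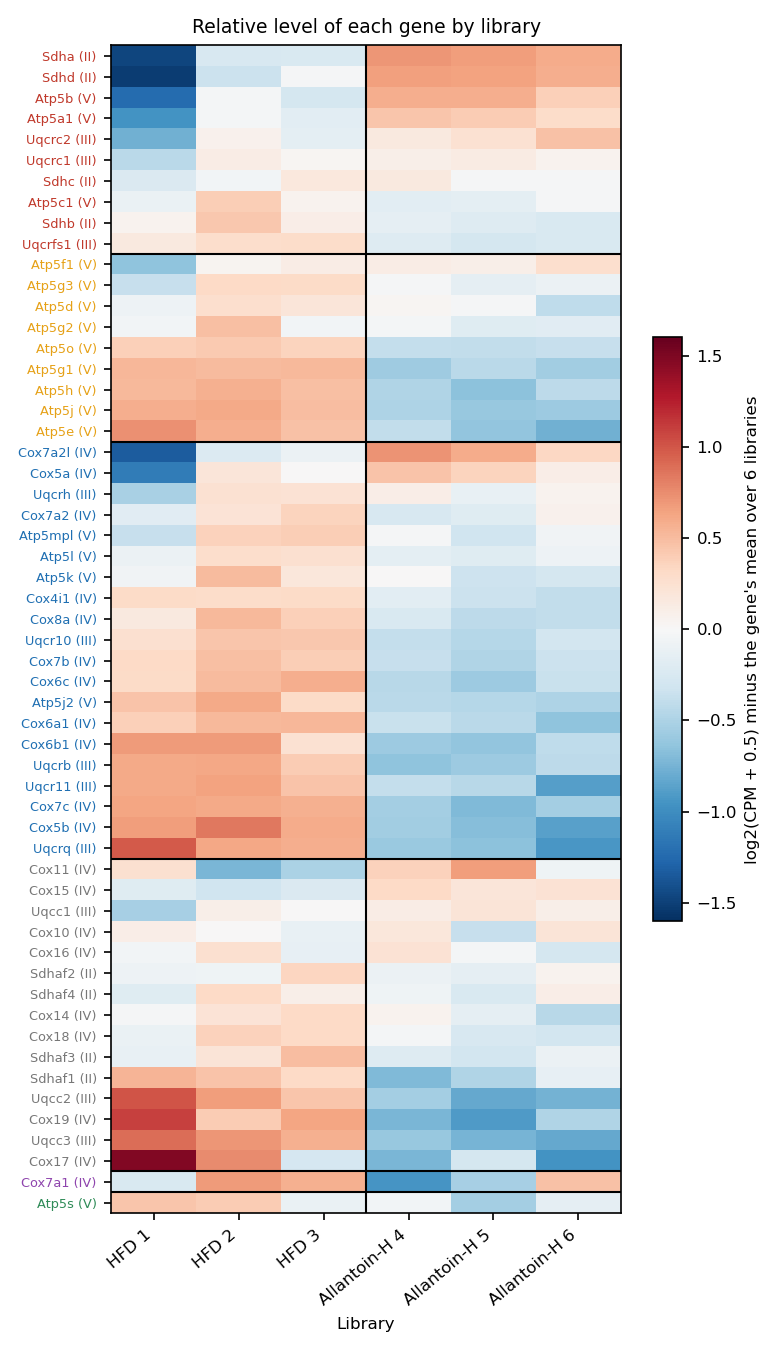
Level of each tested member in each library as log2(CPM + 0.5) minus the gene's mean over the 6 libraries, with genes in rows grouped by class and the complex in parentheses. The vertical line separates HFD from HFD+Allantoin-H. Most small accessory and stalk rows turn from red to blue across the line, and the first catalytic or core rows turn from blue to red with the deepest blue in HFD replicate 1.

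The ratio of 2 genes' counts in the same library is free of scaling between libraries. It is not free of a trend of level in transcript length or GC content. Except for Cox5a (645 bases) over Cox5b (745), the pairs set a longer transcript over a shorter one, as in Atp5b (1916) over Atp5e (421). The pairs given here were chosen after their values had been seen, so the ratios are a description with no test. Sdha over Sdhb, which form the catalytic part of complex II together, was 0.345, 0.621 and 0.781 in HFD and 1.81, 1.84 and 1.79 in HFD+Allantoin-H, or 0.583 ± 0.221 against 1.82 ± 0.0256 (SD, n = 3). Uqcrc2 over Uqcrq in complex III was 0.188 ± 0.0725 against 0.736 ± 0.18. In complex IV, Cox5a over Cox5b was 0.201 ± 0.0798 against 0.773 ± 0.0198 and Cox7a2l over Cox7c was 0.21 ± 0.0871 against 0.978 ± 0.151. Atp5b over Atp5e in complex V was 1.17, 2.98 and 2.70 in HFD and 9.0, 10.7 and 10.1 in HFD+Allantoin-H. In all 5 pairs the groups were apart, with HFD replicate 1 the lowest library.

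Protein length ran with the fold change, among the members and among genes at large. Of 34 tested members with a protein under 150 residues, 20 were called lower and 1 higher, and of 22 longer ones 4 were lower and 4 higher, with medians of −0.93 and 0.05. Among all tested protein-coding genes, 32.6% of the 792 with a protein under 150 residues were called lower and 4.67% higher, and 10.8% and 12.4% of the 10925 longer ones, with medians of −0.44 and 0.02. Spearman's rho between log2 fold change and residues was 0.606 over the 56 members and 0.12 over 11717 genes, a description across genes, which are not independent replicates and share the same 6 libraries. Of the short members 58.8% were called lower, beside the 32.6% of all short-protein genes. Whether length or class of subunit carries the difference cannot be told apart from these lists, since catalytic subunits are long and accessory subunits short. Members that ran against the length were Cox7a2l (111 residues), which was higher, and the longer Uqcrfs1 (274 residues), Atp5o (213), Cox4i1 (169) and Atp5h (161), which were lower.

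**Figure D4:**
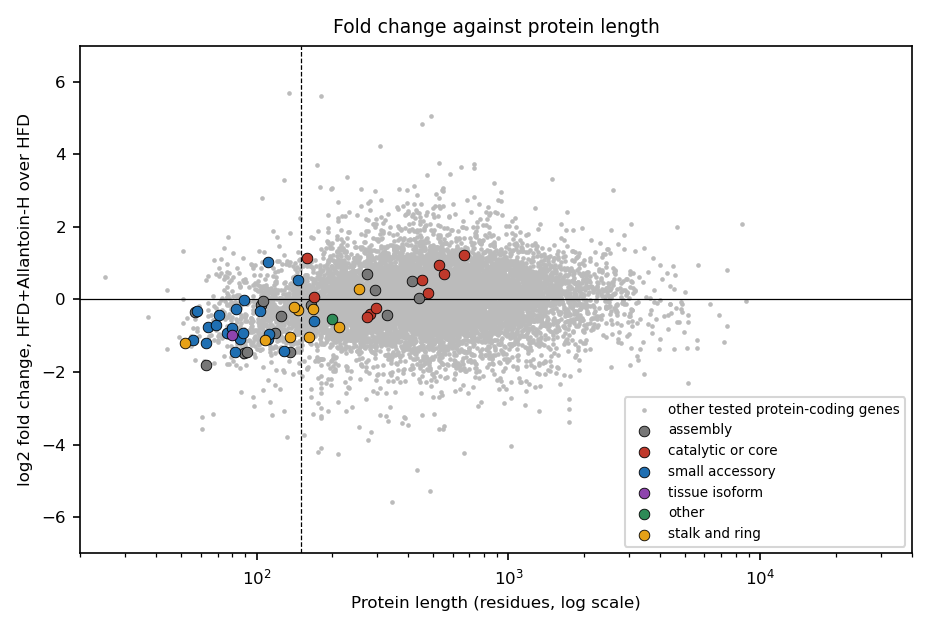
Log2 fold change, HFD+Allantoin-H over HFD, against protein length in residues on a log axis. Grey points are the other tested protein-coding genes, coloured points the 56 tested members by class, and the dashed line marks 150 residues. Coloured points left of the line lie mostly below 0, and the 664-residue Sdha is the highest coloured point.

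When each library's trend of level in transcript length and GC content was removed, 18 members were called lower and 5 higher, beside 11.4% and 10.2% of all tested genes. The median log2 fold change was then −0.07 for all members, −0.14 for small accessory, −0.40 for stalk and ring and 0.41 for catalytic or core subunits. Sdha (1.10), Sdhd (1.28), Cox7a2l (1.21) and Atp5b (0.93) stayed called higher, and Cox5a (0.94, edgeR adjusted p = 0.0445) joined them in place of Cox15. Uqcrq (−0.96), Cox5b (−1.04), Cox7c (−0.79), Atp5j (−0.78) and Atp5g1 (−1.14) stayed lower. Calls of Uqcr10, Uqcr11, Cox4i1, Cox6a1, Cox8a and Atp5o were lost, with edgeR adjusted p of 0.878, 0.178, 0.903, 0.298, 0.953 and 0.0594, and the log2 fold change of Cox8a was then 0.017 in place of −0.71. The part of length and GC content in the unadjusted values was not tested beyond this.

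**Figure D5:**
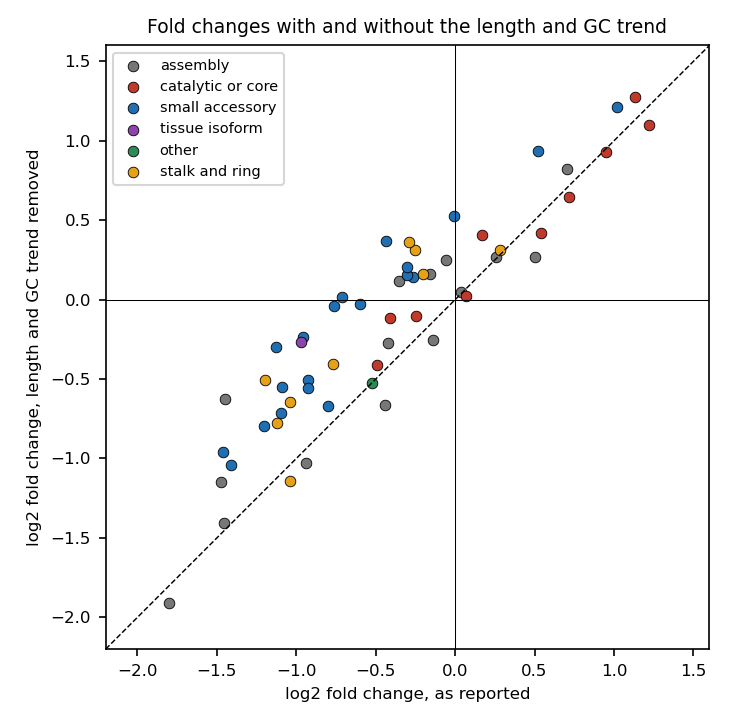
Log2 fold change of the 56 tested members as reported (x axis) against the value with each library's length and GC trend removed (y axis), coloured by class. The dashed line marks equal values. Most blue and orange points lie above the line and nearer to 0, and red points on the right stay near the line.

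The genes of the same complexes that the symbols do not cover were taken from lists written from general knowledge. All 6 mtDNA-coded subunits of complexes III to V were called lower, at a median of −2.29 on the log2 scale: mt-Cytb of complex III (−1.95), mt-Co1, mt-Co2 and mt-Co3, the catalytic core of complex IV (−2.01, −3.08 and −1.79), and mt-Atp6 and mt-Atp8 of complex V (−2.57 and −3.15). Their summed level was 103200 to 279300 CPM in HFD and 33500 to 57970 CPM in HFD+Allantoin-H. The largest edgeR adjusted p of these 6 was 0.0331. The edgeR adjusted p passed 0.05 for mt-Co3 and mt-Atp6 without HFD replicate 1 (0.0679 and 0.1003) and for all but mt-Atp8 without HFD+Allantoin-H replicate 4 or 5 (0.0532 to 0.115 at the highest). Of 26 tested further nuclear genes, mainly assembly factors, 6 were called lower and 1 higher, beside 13.0% and 11.3% of all tested genes. Their median was −0.05, beside −0.03 over all tested genes. Pet100, a factor of complex IV assembly, was lower (log2 fold change −1.79, SE 0.25, edgeR adjusted p = 0.00389). Taco1, which activates translation of mt-Co1, was at 3.06, 5.43 and 3.76 CPM in HFD and 18.1, 17.3 and 14.1 CPM in HFD+Allantoin-H and was higher (log2 fold change 2.01, SE 0.26, edgeR adjusted p = 0.00319). Higd2a, Coa6, Fmc1, Higd1a and Pnkd were lower with log2 fold changes of −0.63, −0.56, −0.61, −0.65 and −0.53, and each of these 5 was lost without any one HFD+Allantoin-H library (edgeR adjusted p up to 0.0795, 0.114, 0.112, 0.126 and 0.197). Of 3 subunits with other symbols, Usmg5, a small subunit of complex V, was lower (−0.80, edgeR adjusted p = 0.00938, and 0.0624 without HFD+Allantoin-H replicate 5). Cyc1, the catalytic cytochrome c1 of complex III, and Ndufa4 of complex IV were not called (0.14 and −0.06). Cyc1 and Ndufa4 are also among the 26 further genes.

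Some counts could not be assigned to 1 gene with certainty. For 14 tested members, genes or pseudogenes at other places in the genome have transcripts at least 95% identical over at least 200 bases. The share of such copies was 30.7% to 34.2% of the summed counts for Atp5l, 15.3% to 19.9% for Atp5g1, 12.6% to 17.7% for Atp5h, 7.32% to 10.8% for Cox5b and 0.563% to 12.4% for Cox7a2l. Summing these members with their copies changed no call. A further 6 tested members (Cox11, Uqcrc2, Cox15, Cox17, Sdhaf1 and Cox16) share such a stretch with a gene that overlaps them at the same place, and these were not summed. For Cox11 the overlapping gene, Tom1l1, held 132 to 303 counts against 21 to 106 of Cox11, so that the value of Cox11 is uncertain. The genes that overlap the other 5 held 0 to 28 counts. Strand use in counting is not given in the sources used here, and exons of Atp5j overlap those of Gabpa, exons of Cox6c those of Vps13b and exons of Cox4i1 those of Emc8 on the opposite strand, so that their reads may be shared.

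Promoters of 44 of the 56 tested members were in the RefSeq table (GRCm38.p6, 250 bases before to 50 after the start). The NRF1 motif was found on either strand in 13 of them (29.5%), beside 5.19% of 27025 genes, and the ETS motif in 19 (43.2%), beside 9.93%. The 27025 genes are all those with a promoter in the RefSeq table, tested here or not, so the members were not set against tested genes alone. Matches to the YY1 motif AAGATGGC, the Sp1 motif GGGCGG and the ERR motif TCAAGGTCA were in 4, 21 and 2 promoters (9.09%, 47.7% and 4.55%), beside 3.19%, 38.2% and 0.466% of all genes, and the TATA motif TATAAA in 3 (6.82%), beside 15.7%. Motifs were searched on both strands, could overlap and were counted separately. The NRF1 motif was in 4 of 19 promoters of members called lower, 2 of 5 called higher and 7 of 20 not called. For the ETS motif these counts were 8 of 19, 2 of 5 and 9 of 20. Promoters with either motif were thus found among the lower, the higher and the uncalled members.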

How the data were processed

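Livers of 3 mice per group (HFD and HFD+Allantoin-H) were used, with 1 library each, prepared with a SMARTer mRNA-seq kit. The deposited values are raw read counts per gene, which the authors made from filtered Illumina reads. The submitters' processing notes name GRCm38 and mm10, and the aligner, the counting tool and the use of strand are not given in the sources used here. A further 429 entries that carry other identifiers, 0.197% to 0.306% of all counts, were not used. Symbols, positions and lengths came from GENCODE release M21, in which 54495 of 54532 identifiers were found.

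Counts were fitted with edgeR 4.0.16 in R 4.3.3 (TMM, filterByExpr, quasi-likelihood test, Benjamini-Hochberg adjustment over 12795 genes), with the group as the only term. CPM are scaled by TMM factors, which ran from 0.756 to 0.951 in HFD and from 1.12 to 1.19 in HFD+Allantoin-H, and the prior count for log-CPM was 2. Standard errors were derived from the F statistic. An exact permutation test of 3 against 3 libraries cannot go below p = 0.1, so that single values rest on the fit across all genes. No batch or date is given, and neither can be told apart from the group. The procedure was tested on simulated data with planted changes in equal numbers up and down. That simulation held no trend in length or GC content and no planted shift of the mtDNA genes as a set, so it does not cover these features.

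Members, classes and lists were chosen with earlier results of these data known, and the list of 3 subunits with other symbols and that of 8 regulators were added after the values had been seen. The rule for values per library took catalytic or core subunits, the 3 called members with the smallest p per direction and complex, c-ring genes and tissue isoforms. Alternatives were RLE, upper-quartile and library-size scaling, DESeq2 1.42.0, limma-voom (limma 3.58.1), an unfiltered table, a minimum of 10 counts per library, the mitochondrial chromosome left out, offsets for length and GC content (a spline with 5 degrees of freedom for each, fitted per library), leaving out each library, an adjusted p under 0.01, summing of copies (BLAST 2.17.0) and other class limits. Protein sequences were not used here.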

Additional observations from a re-analysis of the deposited data

How the results depend on the processing

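Of the 24 members called lower, 12 were called under each of the 16 alternative fits (Uqcrq, Uqcrb, Uqcc2, Uqcc3, Cox5b, Cox6b1, Cox7c, Cox19, Atp5e, Atp5g1, Atp5h and Atp5j), and of the 5 called higher none was, because each was lost without any one HFD+Allantoin-H library. With library-size scaling 674 genes were lower and 3162 higher in place of 1666 and 1446, with 13 members lower and 8 higher. The median log2 fold change was then −0.025 for all members, 0.25, −0.35, −0.24 and 0.081 for complexes II to V, 0.75 for catalytic or core, −0.35 for stalk and ring, −0.37 for small accessory subunits and 0.057 for assembly factors. The values of Sdhb (0.0021), Atp5c1 (0.16), Atp5g2 (0.12) and Atp5g3 (0.19) turned positive. This scaling shifted all genes. With the length and GC trend removed, the medians were −0.072 for all members, −0.30, −0.13 and 0.15 for complexes III to V, −0.40 for stalk and ring and −0.14 for small accessory subunits, and Atp5g2 (0.36), Atp5g3 (0.16) and Cox8a (0.017) turned positive. Of all members, 13 turned sign with library-size scaling, of which 0 had been called, and 12 with the trend removed, of which Cox8a alone had been called. Sdhc was at −0.031 without HFD replicate 1 and at up to 0.178 without another library. The cause was not tested. Leaving out 1 library gave 564 to 2008 genes lower and 460 to 1773 higher, and 16 to 23 members lower and 0 to 5 higher. At an adjusted p under 0.01, 0 members were higher. Catalytic subunits in the strict sense had a median of 0.71, and subunits under 150 residues −0.86.

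No paired analysis was possible because the replicate numbers of the groups, 1 to 3 and 4 to 6, are not shared. With 3 mice per group, members whose values differ little between groups, such as Sdhc or Uqcrh, were not shown to be unchanged. Cox17 and the tissue isoforms were limited by low counts.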

Other observations

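Regulators known to act on nuclear respiratory genes were read from a list of 8 chosen after the values had been seen. Of these 8, 2 were called higher and 1 lower, beside 11.3% and 13.0% of all tested genes. Ppargc1a, a coactivator of mitochondrial genes, was at 3.49, 3.36 and 5.18 CPM in HFD and 6.82, 9.52 and 7.83 CPM in HFD+Allantoin-H, with no overlap (log2 fold change 0.9997, SE 0.29, edgeR adjusted p = 0.0343). Gabpa, the DNA-binding subunit of GABP, was at 20.7, 27.7 and 30.4 CPM in HFD and 41.6, 43.9 and 42.2 CPM in HFD+Allantoin-H (log2 fold change 0.70, SE 0.18, edgeR adjusted p = 0.0231). Its exons overlap those of Atp5j on the opposite strand. Pprc1, a relative of Ppargc1a, was lower (log2 fold change −1.01, SE 0.30, edgeR adjusted p = 0.0378). Gabpb1, Nrf1, Yy1, Esrra and Ppargc1b were not called, with log2 fold changes of −0.82, −0.47, −0.23, −0.29 and 1.196. The adjusted p of the 3 called regulators rose to 0.0906 for Gabpa, 0.146 for Ppargc1a and 0.176 for Pprc1 at the highest over the alternatives. Any relation between these regulators and the respiratory genes was not tested.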
